A study of Mus musculus with 6 samples.

Results

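The 10 genes described here encode proteins that the colon epithelium secretes, anchors or transports at its surface to keep bacteria away: the lectins Reg3b, Reg3g, Reg4 and Itln1, the antimicrobial proteins Retnlb, Ang4 and Lypd8, the protease inhibitors Slpi and Wfdc2, and the IgA receptor Pigr. They were chosen by symbol, all 10 were measured among 19936 genes, and each had 1 probe set. Levels are log2 values made with RMA, which corrects background, normalizes between arrays and combines the probes of a probe set, so a difference of 1 is a doubling. Colon epithelium came from male C57BL/6J mice aged 8 weeks, with 3 arrays from enterocyte-specific Sel1L knockout mice (Sel1L-delta-IEC) and 3 from mice labelled wild type. In the knockout, exon 6 of Sel1l, floxed on both alleles, was removed by a Cre driven by the villin-1 promoter, which is active in intestinal epithelial cells. The labels do not say whether the wild type mice carried floxed alleles, nor that each array stands for its own mouse.

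Sel1L holds together the Hrd1 ubiquitin ligase complex, which clears misfolded proteins from the endoplasmic reticulum (ER), the compartment through which all the proteins described here pass on their way out of the cell. In the colon, goblet cells and the deep crypt secretory cells beside the stem cells release mucus together with proteins such as RELMβ (from Retnlb) and REG4, whereas absorptive colonocytes make LYPD8 and can be induced by bacteria and IL-22 to make the REG3 lectins. Pigr carries IgA made by plasma cells across the epithelial cell into the lumen.

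The targeted gene Sel1l averaged 8.81 ± 0.22 in the knockout and 9.55 ± 0.11 in wild type (SD, n = 3 each), with every knockout array below every wild type array (limma adjusted p = 0.018, exact two-sided permutation p = 0.1, the smallest that 3 arrays against 3 can give). This call ended when wild type array 1 or 2 or knockout array 1 or 3 was left out, where the adjusted p reached 0.087. All 14 markers of colon epithelium lay above the array median of 6.32 to 6.36. So did 9 of 14 markers of small intestine enterocytes and 8 of 19 of pancreatic acinar cells, beside 10914 of all 19936 genes. Fewer markers of immune and stromal cells did, with 2 of 13 for plasma and B cells, 1 of 13 for neutrophils, 2 of 15 for macrophages and dendritic cells, 2 of 15 for T cells and innate lymphoid cells and 5 of 13 for fibroblasts and smooth muscle. In bulk epithelium, fewer cells of a type and less RNA per cell cannot be told apart.

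Of the 10 genes, limma called 1 at an adjusted p under 0.05, Wfdc2, which fell. Over all genes 1.63% were called, 0.712% lower and 0.918% higher in the knockout. The genotypes did not overlap for 4 of the 10, with Wfdc2, Pigr and Lypd8 lower and Ang4 higher in every knockout array, against 19.4% of all genes without overlap, 7.98% lower and 11.4% higher. The median difference of the 10 was -0.18, beside 0.019 over all genes. Without adjustment, 5 of the 10 had a p under 0.05 (Wfdc2, Pigr, Ang4, Lypd8 and Reg4), against 13.3% of all genes. The arrays showed a fall of Wfdc2, narrow and small differences of Pigr and Lypd8, and wide spreads among the wild type arrays for Reg3b, Reg3g, Ang4, Retnlb, Itln1 and Reg4.

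**Figure D1:**
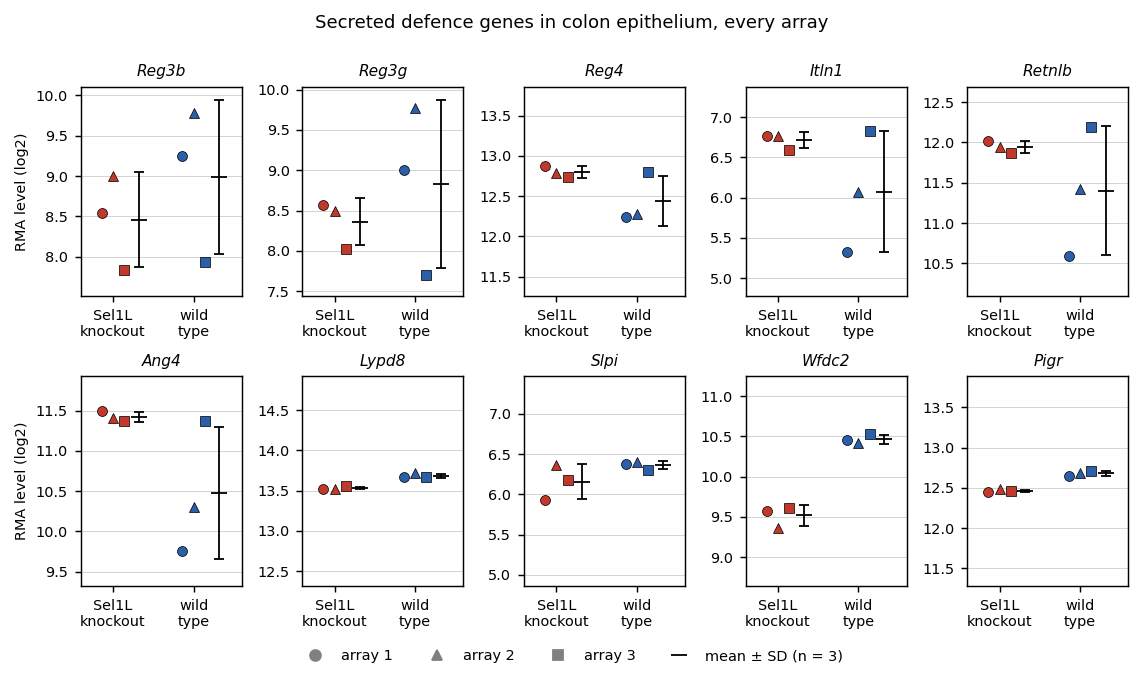
RMA levels (log2, vertical axis) of the 10 genes in 3 Sel1L knockout arrays (red) and 3 wild type arrays (blue); marker shapes give the array number within a genotype, bars the mean ± SD, and every panel spans the same log2 range. Wfdc2 lies at 9.36 to 9.62 in the knockout and 10.42 to 10.52 in wild type, and wild type array 3 stands apart from the other wild type arrays for Reg3b, Reg3g, Reg4 and Ang4.

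Among the lectins, Reg3b and Reg3g encode C-type lectins that bind bacterial cell wall sugars, and they stand on chromosome 6 with Reg3d, Reg3a, Reg2 and Reg1 between them. Reg3b read 8.54, 9.003 and 7.83 in the knockout arrays, against 9.25, 9.79 and 7.93 in the wild type arrays. Reg3g read 8.57, 8.49 and 8.02 in the knockout, against 9.01, 9.77 and 7.70 in wild type. For both genes wild type arrays 1 and 2 lay above all knockout arrays, wild type array 3 lay among or below them, and knockout array 3 was the lowest of its genotype. The difference was -0.53 ± 0.45 for Reg3b (SE, 95% interval -1.57 to 0.50, adjusted p = 0.69) and -0.46 ± 0.44 for Reg3g (-1.47 to 0.54, adjusted p = 0.72). Neither passed the test, and the intervals hold a fall of more than 1 as well as a rise of up to 0.50 and 0.54.

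The differences of Reg3b and Reg3g depended on single wild type arrays. Without wild type array 3 the differences were -1.06 ± 0.31 and -1.03 ± 0.24, still not called (adjusted p = 0.19 and 0.11), and without wild type array 2 they were -0.13 and 0.0069. The other Reg genes of that stretch of chromosome 6 were dim, with Reg1 between 4.91 and 5.10 over all arrays, and none of the 4 lay above the array median. REG3 transcripts are similar in sequence, so a probe set may read both, which was not tested.

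Among all 19936 genes, Reg3b had Reg3g as its nearest gene and Reg3g had Reg3b. Their root mean square difference was 0.23 between values centred on each gene's own mean over the 6 arrays. Their promoters, the 250 bases before the annotated start (RefSeq, GRCm38.p6), are printed because these genes moved together over the arrays, and capitals mark the motifs TTCNNNGAA, a palindrome that STAT factors bind, and TATAAAA, the TATA box, searched on both strands.
Reg3b, chr6:78370635-78370884, plus strand: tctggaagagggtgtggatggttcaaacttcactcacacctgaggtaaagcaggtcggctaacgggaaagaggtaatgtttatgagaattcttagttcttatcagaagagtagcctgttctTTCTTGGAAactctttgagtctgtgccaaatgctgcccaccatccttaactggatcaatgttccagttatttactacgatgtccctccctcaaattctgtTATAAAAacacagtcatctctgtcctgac
Reg3g, chr6:78468875-78469124, minus strand: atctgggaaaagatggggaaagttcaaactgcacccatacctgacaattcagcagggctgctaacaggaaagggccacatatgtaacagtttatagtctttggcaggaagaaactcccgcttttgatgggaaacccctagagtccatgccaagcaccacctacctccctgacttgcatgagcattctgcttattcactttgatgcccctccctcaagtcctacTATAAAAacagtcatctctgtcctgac
The windows were identical at 68.4% of 253 aligned positions, against 39.8% to 49.1% for the other 35 pairs among the 9 of these genes with an entry in the promoter table. Both hold TATAAAA, starting 29 bases before the start in Reg3b and 27 in Reg3g, as do 4.98% of 32851 promoter windows of this length. Reg3b also holds TTCNNNGAA, as do 7.02% of the windows, and these letters are not in the Reg3g window.

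Next to these lectins by centred values came Cyp2c55, a cytochrome P450, with a root mean square difference of 0.34 to Reg3b and 0.37 to Reg3g. The genes that followed were Vnn1, a pantetheinase (0.39), and Ces2e, a carboxylesterase (0.40), for Reg3b, and Ces1f, another carboxylesterase (0.39), and Phospho1, a phosphatase (0.40), for Reg3g. Cyp2c55 read 10.92, 11.09 and 10.30 in the knockout, against 11.49, 11.22 and 10.05 in wild type, so array 3 was the lowest of each genotype. Genes of hindgut position, a list of Hox and Cdx factors that mark place along the gut, had their highest mean level in the same arrays, at 7.83, 7.85 and 7.96 in the knockout and 7.85, 7.90 and 8.02 in wild type over 11 of 14 genes measured, none of them called by limma and 3 with an unadjusted p under 0.05. These were Cdx2 (0.28), Hoxb9 (0.18) and Hoxb13 (-0.20), with adjusted p from 0.20 to 0.37. The list was not uniform over the arrays. Hoxa13, Hoxd9, Hoxd10, Hoxd11, Hoxd12 and Hoxd13 were highest in array 3 of each genotype, whereas Cdx2, Hoxb9 and Hoxa11 were lowest there. Small intestine enterocyte genes averaged 7.27, 7.42 and 7.33 in the knockout, against 7.60, 7.30 and 7.19 in wild type, over 14 genes with 1 called, Rbp2, a retinol-binding protein gene that was lower but was called in none of the 6 fits that leave out an array (adjusted p from 0.066 to 0.11). The part of these lists in the Reg3 values was not tested.

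Reg4 encodes a secreted lectin of deep crypt secretory and enteroendocrine cells, and Itln1 encodes intelectin, which binds sugars found on microbes and is made by goblet cells. Reg4 read 12.88, 12.79 and 12.74 in the knockout, against 12.24, 12.28 and 12.80 in wild type. Itln1 read 6.77, 6.77 and 6.60 in the knockout, against 5.32, 6.07 and 6.83 in wild type. In both, the knockout arrays lay close together, wild type arrays 1 and 2 were below them, and wild type array 3 was at their level. The differences of 0.36 ± 0.14 for Reg4 (95% interval 0.044 to 0.68, adjusted p = 0.30) and 0.64 ± 0.31 for Itln1 (-0.073 to 1.34, adjusted p = 0.43) did not pass the test. The gene table lists older intelectin names such as Itln2 as synonyms of Itln1, and what its probe set reads besides Itln1 was not tested.

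Of the antimicrobial protein genes, Ang4 and Retnlb averaged higher in the knockout and Lypd8 lower, none of them called. Ang4 encodes angiogenin 4, a microbicidal ribonuclease first known from Paneth cells of the mouse small intestine, and Retnlb encodes RELMβ, a goblet cell protein that kills Gram-negative bacteria and is induced by IL-13 in mice. Ang4 read 11.49, 11.40 and 11.38 in the knockout, against 9.76, 10.30 and 11.37 in wild type. Retnlb read 12.02, 11.95 and 11.87 in the knockout, against 10.59, 11.42 and 12.19 in wild type. The wild type arrays thus spread over more than 1.5 log2 units for each gene, while the knockout arrays lay within 0.15. Ang4 was higher in each knockout array than in each wild type array, though by less than 0.01 over wild type array 3, and wild type array 3 was above every knockout array for Retnlb.

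Ang4 averaged 11.42 ± 0.060 in the knockout and 10.48 ± 0.82 in wild type, a difference of 0.95 ± 0.33 that limma did not call (95% interval 0.18 to 1.71, adjusted p = 0.26). For Retnlb the means were 11.95 ± 0.075 in the knockout and 11.40 ± 0.80 in wild type, a difference of 0.55 ± 0.33 (-0.20 to 1.29, adjusted p = 0.54). Without wild type array 3, Ang4 was called at 1.39 ± 0.15 (adjusted p = 0.0091) and Reg4 at 0.54 ± 0.074 (adjusted p = 0.020). In that comparison 1.52% of all genes were called, while Itln1 at 1.01 ± 0.19 (adjusted p = 0.057) and Retnlb at 0.94 ± 0.21 (adjusted p = 0.095) were not. With any other array left out, the adjusted p was at least 0.40 for Ang4 and 0.41 for Reg4. Leaving out wild type array 1 instead made the differences smaller than with all arrays. They were then 0.59 for Ang4, 0.26 for Reg4, 0.26 for Itln1 and 0.14 for Retnlb, none of them called.

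Only 0.085% of all genes had an SD between wild type arrays as large as that of Ang4, 0.090% as large as that of Retnlb, 0.11% as large as that of Itln1 and 1.66% as large as that of Reg4. In the knockout these genes were unremarkable, since 31.6% of all genes had an SD as small as or smaller than that of Ang4, and 43.1% one as small as or smaller than that of Retnlb. Reg3g (0.050%) and Reg3b (0.055%) were also among the genes with the widest wild type spread, but both varied between the knockout arrays too. There 0.20% of genes had an SD as large as that of Reg3b and 1.36% one as large as that of Reg3g. Wild type array 3 lay nearer to the knockout mean than to the mean of the other wild type arrays for 6 of the 10 genes, and for 49.8% of all genes.

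**Figure D2:**
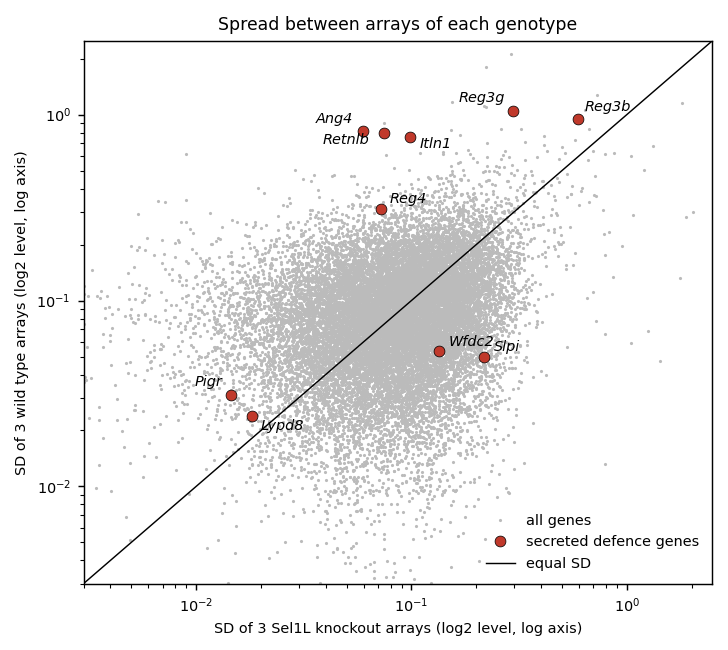
SD of the 3 wild type arrays (vertical) against SD of the 3 Sel1L knockout arrays (horizontal) for all genes (grey) and the 10 secreted defence genes (red), both on log axes with the line of equal SD. Ang4, Retnlb and Itln1 have wild type SDs of 0.82, 0.80 and 0.75 with knockout SDs of 0.060, 0.075 and 0.099, while Pigr and Lypd8 vary little in both genotypes.

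Ang4, Retnlb and Itln1 also followed each other from array to array. Retnlb and Itln1 differed by a root mean square of 0.062 between centred values, Ang4 and Itln1 by 0.19 and Ang4 and Retnlb by 0.22. The genes nearest to Ang4 were Fam221a (0.14), Itln1, Grpr, the receptor of gastrin-releasing peptide (0.20), and Fn1, which encodes fibronectin (0.21). Fn1 read 8.08, 7.67 and 8.04 in the knockout, against 6.20, 6.75 and 8.31 in wild type, and was not called (adjusted p = 0.48). The promoters of Ang4 and Itln1 are printed for comparison, from the same table and with the same marks.
Ang4, chr14:51773591-51773840, minus strand: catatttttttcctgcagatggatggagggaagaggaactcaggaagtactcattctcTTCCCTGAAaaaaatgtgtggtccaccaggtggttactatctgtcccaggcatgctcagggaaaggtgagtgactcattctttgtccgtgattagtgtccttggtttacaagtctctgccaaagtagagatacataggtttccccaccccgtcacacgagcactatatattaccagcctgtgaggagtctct
Itln1, chr1:171535295-171535544, minus strand: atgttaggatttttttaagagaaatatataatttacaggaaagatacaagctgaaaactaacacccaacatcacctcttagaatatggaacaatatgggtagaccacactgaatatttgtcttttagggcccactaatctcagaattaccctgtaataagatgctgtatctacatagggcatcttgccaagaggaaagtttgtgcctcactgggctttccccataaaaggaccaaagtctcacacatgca
The Ang4 window holds 1 TTCNNNGAA, starting 192 bases before the start, and the Itln1 window holds neither motif. Ang4 belongs to a family of similar angiogenin genes, which its probe set may read in part.

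**Figure D3:**
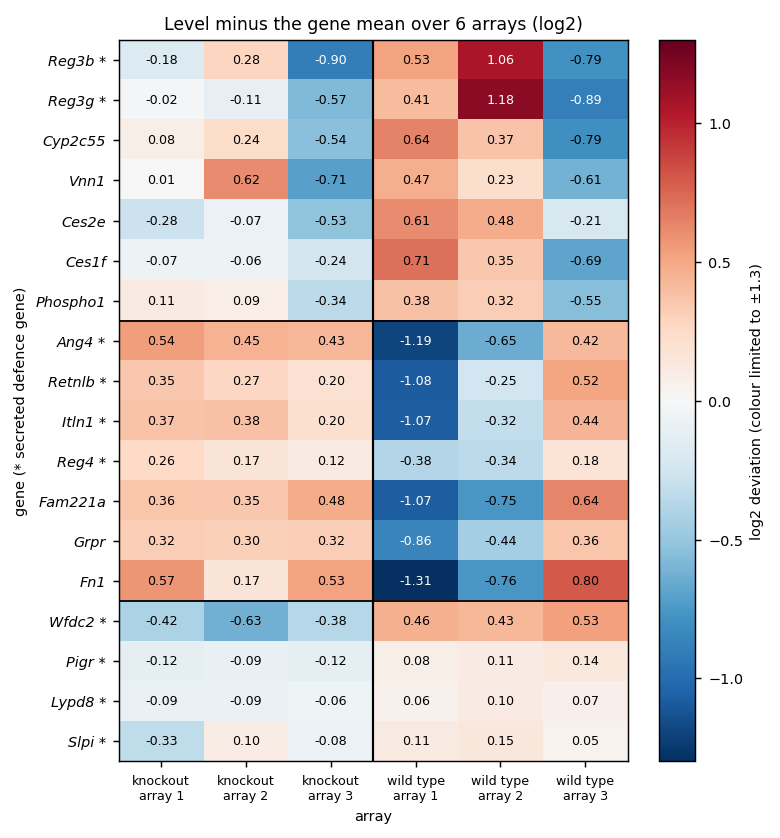
Log2 level minus each gene's mean over the 6 arrays (colour, red above and blue below), with Sel1L knockout arrays on the left and wild type arrays on the right; asterisks mark the 10 secreted defence genes and the other rows are the genes nearest to Reg3b, Reg3g and Ang4. In the upper block array 3 is the lowest of each genotype, the middle block is low in wild type arrays 1 and 2 alone, and Wfdc2 in the lower block is low in all knockout arrays.

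Goblet and deep crypt secretory markers, 15 of 16 measured and all above the array median, averaged 11.14, 11.22 and 11.08 in the knockout, against 11.04, 11.04 and 11.13 in wild type, and limma called none, with 2 at an unadjusted p under 0.05. The mucin gene Muc2 differed by -0.04 and the master regulator of secretory fate Atoh1 by 0.062. Spdef, a transcription factor of goblet cell maturation, read 10.11, 10.34 and 10.17 in the knockout, against 9.93, 9.95 and 9.89 in wild type, with every knockout array higher (0.28, adjusted p = 0.12, not called). Agr2, a disulfide isomerase needed for mucin production, differed by 0.11 with the same separation of the genotypes and was not called (adjusted p = 0.44). Spink4, a goblet cell peptide, read 12.35, 12.31 and 12.28 in the knockout, against 11.97, 12.08 and 12.44 in wild type, with wild type array 3 the highest. Sytl2, a vesicle docking gene, differed by 0.42 (adjusted p = 0.054) and was called without wild type array 3 (adjusted p = 0.025).

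Paneth cell markers were measured for 5 of 14 genes, none called by limma and 1 with an unadjusted p under 0.05. The defensin gene Defa24 stayed between 2.41 and 3.03 and the lysozyme gene Lyz1 between 5.53 and 6.38, and only Pla2g2a, a phospholipase, averaged above the array median. Digestive genes of pancreatic acinar cells averaged 6.76 to 6.80 in the knockout, against 6.55 to 6.82 in wild type, over 19 of 23 genes. The acinar protease genes Cpa1 and Ctrb1 lay below the array median in every array, but the lipase gene Pnliprp2, named here after its values were seen, read 10.48, 10.09 and 10.11 in the knockout, against 6.25, 7.34 and 9.77 in wild type. Its difference of 2.44 ± 0.73 was not called by limma (adjusted p = 0.18). With an array left out, Pnliprp2 was called only without wild type array 3 (adjusted p = 0.0034). In Spink4 and Pnliprp2, as in Ang4, wild type arrays 1 and 2 lay below the other 4 arrays, and the part of either list in the Ang4 values was not tested. In the acinar list Cela1, an elastase gene (-0.68 ± 0.083, adjusted p = 0.0099), and Sycn, which encodes syncollin (-0.50, adjusted p = 0.049), fell, and both are expressed in other tissues besides pancreas. With an array left out, Sycn was called only without knockout array 3 (adjusted p up to 0.14), and Cela1 was not called without knockout array 1 (adjusted p = 0.053).

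Lypd8 encodes a glycoprotein that colonocytes shed into the lumen, where it binds flagella and hinders motile bacteria. It read 13.52, 13.52 and 13.55 in the knockout, against 13.67, 13.71 and 13.67 in wild type, with every knockout array lower. The difference of -0.15 ± 0.055 (95% interval -0.28 to -0.027) was small and not called (adjusted p = 0.27). Lypd8 was called when the variance prior followed the intensity (adjusted p = 0.029), where 3.08% of all genes were called. The 14 colon epithelium markers averaged 11.78, 11.86 and 11.82 in the knockout, against 11.96, 12.02 and 11.88 in wild type, with 6 at an unadjusted p under 0.05. The water channel gene Aqp8 was the 1 called, at 10.53, 10.55 and 11.04 in the knockout and 11.57, 11.60 and 11.35 in wild type (-0.80, adjusted p = 0.032), and with an array left out it was called only without knockout array 3 or wild type array 3 (adjusted p up to 0.13). Of other colonocyte genes, the carbonic anhydrase gene Car4 differed by -0.52 (adjusted p = 0.051) and the chloride exchanger gene Slc26a3 by -0.36 (adjusted p = 0.16). Another carbonic anhydrase gene, Car1, differed by 0.0058, Krt20 by -0.070 and Cdx2 by 0.28. Epcam and Cdh1 each differed by -0.23 with every knockout array lower, and neither was called (adjusted p = 0.12 for each). Krt8, Krt18 and Krt19 differed by 0.0063, 0.18 and 0.040. The median difference of the 14 markers was -0.055. The part of these markers in the Lypd8 and Pigr values was not tested.

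The protease inhibitors share the whey acidic protein fold and lie on chromosome 2 with 7 protein-coding genes between them. Wfdc2, also known as HE4, encodes a secreted protein of many mucosal epithelia, and Slpi encodes the secretory leukocyte protease inhibitor, which is also made by neutrophils and macrophages. Wfdc2 read 9.58, 9.36 and 9.62 in the knockout, against 10.45, 10.42 and 10.52 in wild type. The means were 9.52 ± 0.13 in the knockout and 10.46 ± 0.053 in wild type, and the gap between the genotypes was far wider than the spread within either. Wfdc2 fell by 0.95 on the log2 scale (SE 0.079, 95% interval -1.13 to -0.76, adjusted p = 0.0026, exact permutation p = 0.1), to 0.519 of the wild type level. The call held in all 15 alternatives, with adjusted p from 0.00024 to 0.019, and with an array left out the difference ran from -0.99 to -0.87.

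Slpi read 5.93, 6.36 and 6.18 in the knockout, against 6.37, 6.40 and 6.31 in wild type. The groups overlapped, the levels lay near the array median, and the difference of -0.20 ± 0.10 (95% interval -0.44 to 0.035) was not called (adjusted p = 0.45). Among 13 neutrophil markers 1 was called, Ly6g, a surface protein gene, at 10.57, 10.78 and 11.16 in the knockout and 11.89, 12.15 and 11.75 in wild type (-1.09, adjusted p = 0.014), and with an array left out it was called only without array 3 of either genotype (adjusted p up to 0.064). The neutrophil gene S100a8 lay below the array median in every array, and the part of the list in the Slpi values was not tested. Of 18 genes whose symbols begin with Wfdc, 2 were called, Wfdc2 and Wfdc18, and 4 lay above the array median. Wfdc18, another small protein of the whey acidic protein family, read 7.83, 7.88 and 7.56 in the knockout, against 8.42, 8.78 and 8.57 in wild type, a difference of -0.84 ± 0.11 (adjusted p = 0.012) that was not called without knockout array 1 (adjusted p = 0.054). The Wfdc2 promoter is printed because this gene alone among the 10 was called.
Wfdc2, chr2:164562465-164562714, plus strand: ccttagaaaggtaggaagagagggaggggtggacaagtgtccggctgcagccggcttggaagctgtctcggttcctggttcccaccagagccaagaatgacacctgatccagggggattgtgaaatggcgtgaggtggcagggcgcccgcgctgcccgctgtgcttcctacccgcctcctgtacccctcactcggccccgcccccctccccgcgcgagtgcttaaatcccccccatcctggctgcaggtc
It holds neither marked motif. Motifs of the unfolded protein response, the ER stress response element (CCAAT, then any 9 bases, then CCACG) and TGACGTGG, which XBP1 and ATF6 can bind, were searched on both strands in 11 windows of 9 of the 10 genes and were in none, beside 0.113% and 0.563% of all windows.

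Pigr encodes the polymeric immunoglobulin receptor, whose cut-off outer part leaves the cell bound to IgA. Its level was 12.45, 12.48 and 12.46 in the knockout, against 12.65, 12.68 and 12.71 in wild type. Every knockout array was lower, with an SD of 0.015 in the knockout and 0.031 in wild type, but the difference was small at -0.22 ± 0.056 (95% interval -0.35 to -0.092), or 0.859 of the wild type level, and was not called (adjusted p = 0.12). Pigr was called with an intensity trend (adjusted p = 0.0088) and when the dimmest 50% of genes were left out (adjusted p = 0.034), where 6.0% of the remaining genes were called. The IgA joining chain gene Jchain (3.78 to 4.07) and the IgA heavy chain gene Igha (5.04 to 5.26) lay below the array median in all arrays. Of 13 plasma and B cell markers 1 was called, Derl3, also a gene of degradation at the endoplasmic reticulum, at 9.63, 8.85 and 9.18 in the knockout and 6.78, 6.59 and 6.83 in wild type (2.49, adjusted p = 0.0013, called in all 6 fits that leave out an array). The part of that list in the Pigr values was not tested.

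**Figure D4:**
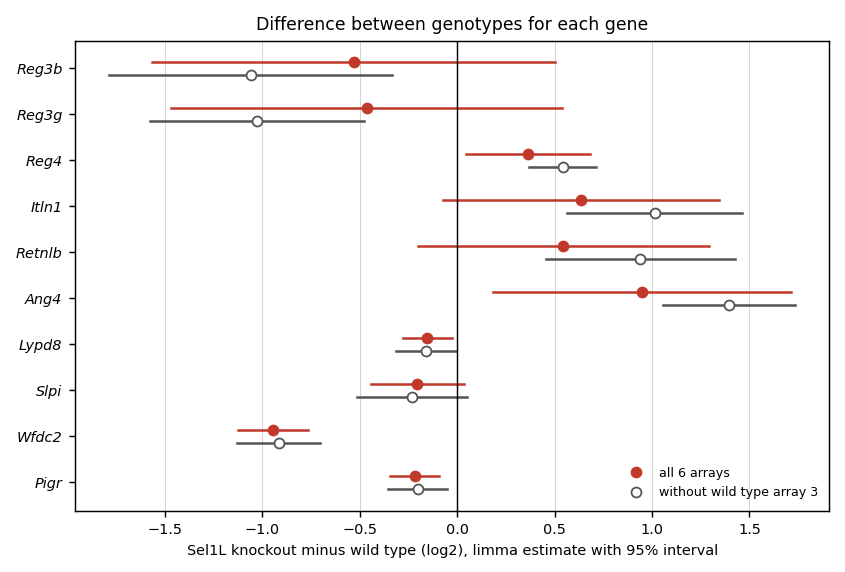
Sel1L knockout minus wild type (log2, horizontal axis) for each gene as the limma estimate with its 95% interval, over all 6 arrays (filled red) and without wild type array 3 (open grey). Wfdc2 stays near -0.9 in both, whereas Ang4 is at 0.95 with all arrays and 1.39 without that array, and Reg3b at -0.53 and -1.06.

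Of other secreted antimicrobial genes, 24 of 27 were measured, 2 fell and none rose, with a median difference of -0.039. They were Wfdc18 and Pglyrp1, a peptidoglycan recognition protein that binds bacterial cell walls, which read 11.24, 11.25 and 11.30 in the knockout, against 11.64, 11.79 and 11.74 in wild type (-0.46 ± 0.063, adjusted p = 0.013). The call of Pglyrp1 ended without knockout array 1 or 2 or wild type array 2, where the adjusted p reached 0.069. Saa1, an acute phase protein that epithelium makes in contact with bacteria, read 7.38, 7.63 and 7.83 in the knockout, against 8.35, 8.78 and 7.89 in wild type, and was not called (adjusted p = 0.16). Dmbt1, a mucosal scavenger receptor, differed by -0.24 (adjusted p = 0.26) and Lyz1 by -0.37 (adjusted p = 0.28). Saa1 and the colipase gene Clps were called without wild type array 3, which made 4 called genes, and none was called without knockout array 1.

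Among IgA transport partners, 9 of 10 were measured and 1 fell, with a median of -0.036. Ccl28, a chemokine of the epithelium that attracts IgA plasma cells, read 10.69, 10.77 and 10.84 in the knockout, against 11.11, 11.13 and 11.11 in wild type (-0.35 ± 0.062, adjusted p = 0.033), and was not called in any fit with an array left out (adjusted p from 0.052 to 0.13). Plgrkt, a plasminogen receptor that has no known part in IgA transport, was in that list by mistake and differed by -0.18 (adjusted p = 0.21). Of 28 measured receptors and signalling genes for IL-22 and IL-13 and for bacterial sensing, limma called none, with 6 at an unadjusted p under 0.05 and a median of 0.010. The smallest p was that of Myd88, the adaptor of Toll-like receptors, which read 9.39, 9.29 and 9.28 in the knockout, against 9.01, 9.04 and 9.10 in wild type (0.27 ± 0.062, adjusted p = 0.090). Il13ra1 (-0.17), Socs3 (0.21) and Il18 (-0.29) followed, with adjusted p from 0.23 to 0.28, and the IL-22 receptor gene Il22ra1 differed by -0.14 (adjusted p = 0.55).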

How the data were processed

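Colon epithelium RNA of 3 Sel1L knockout and 3 wild type samples was hybridised to Affymetrix arrays, 1 per sample. The deposited values are log2 levels made by the authors with RMA, per the submitters' processing notes; its software, version and genome build: not given in the sources used here. They were not normalized further. Of 35556 probe sets, 21789 named 1 gene, 1621 several and 12146 none in the platform annotation; symbols were updated through RefSeq (GRCm38.p6), by gene identifier for 21698. Where a gene had several probe sets, the one brightest on average over the 6 arrays was kept, leaving 19936 genes. The genotype test was limma 3.58.1 (R 4.3.3; lmFit, eBayes, no covariate, two-sided), with Benjamini-Hochberg adjustment over all genes; the test was tested on simulated data. Called means an adjusted p under 0.05. The 95% intervals use the moderated SE.

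The members and lists were chosen with earlier results of these data known. Named genes were all 10 members, Sel1l, called genes of each list and genes nearest to the 3 members of widest range; list members with the smallest p were named in part, and others after their values were seen. No lists were tested as sets. The p-values reflect spread between arrays, which may be technical, and the number of arrays limits precision. No batch was recorded in the tables used. Promoters came from RefSeq and were aligned with Biopython 1.88. Figures were drawn with matplotlib 3.10.9 in Python 3.11.15. Alternatives were a replicate block, quantile normalization, median centring, filters on dim genes, an intensity trend, a robust prior, array weights, averaging a gene's probe sets and each array left out. The same alternatives for Sel1l, and the list counts with an array left out, were added after seeing the data.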

Additional observations from a re-analysis of the deposited data

How the results depend on the processing

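With single arrays left out, the called genes among the 10 numbered 1 to 3, those among all genes 69 to 303, and the Sel1l difference ran from -0.87 to -0.67; the cause was not tested. The 3 were Wfdc2, Ang4 and Reg4, without wild type array 3. With an intensity trend in the variance prior, 3 of the 10 (Wfdc2, Pigr and Lypd8) and 614 genes were called; leaving out the dimmest 50% of genes, which removed Itln1 and Slpi, gave 2 of the rest (Wfdc2 and Pigr) and 598 genes, from fewer genes tested. Reg3g turned to 0.0069 without wild type array 2 (lowest -1.03). Of 148 alternative values of single members, 142 kept direction and side of the threshold, 5 became called and 1 turned. Whether the replicate numbers pair the samples cannot be told from these values. Same-numbered arrays of the 2 genotypes had correlations of -0.10, 0.15 and 0.15 between deviations from the group means, over genes. Arrays of unlike number had correlations from -0.26 to 0.12, and deviations within a group of 3 arrays depend on each other. With the replicate block 217 genes and 1 of the 10 (Wfdc2) were called. Slpi and Itln1 lie near the array median, where a probe set may read background.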

Other observations

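The genes named next were picked because their centred values lie nearest to those of Wfdc2. That they were low in every knockout array, and their calls, largely follow from this choice and are only a description. The 4 genes nearest to it by centred values, named after their values were seen, were Gm2a, the activator protein of a lysosomal hexosaminidase, Ctse, the aspartic protease cathepsin E, Slc46a1, a folate and heme transporter, and Bmp2, a secreted growth factor, at root mean square differences of 0.13, 0.13, 0.13 and 0.14. Ctse read 9.85, 9.76 and 9.94 in the knockout, against 10.49, 10.53 and 10.63 in wild type (-0.70 ± 0.072, adjusted p = 0.0064). Gm2a differed by -0.75 ± 0.079 (adjusted p = 0.0064), Slc46a1 by -0.80 ± 0.095 (adjusted p = 0.0090) and Bmp2 by -0.78 ± 0.12 (adjusted p = 0.018). Gm2a, Ctse and Slc46a1 stayed called with each array left out, while Bmp2 was lost without knockout array 1 or 2 or wild type array 2, where the adjusted p reached 0.084.

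Retnlb and Itln1 shared their nearest genes. After each other came Grpr (0.15 from Retnlb and 0.12 from Itln1), and then Clps and Anxa13, an annexin of epithelial cells. Grpr read 7.80, 7.78 and 7.80 in the knockout, against 6.62, 7.03 and 7.83 in wild type (adjusted p = 0.33), and Anxa13 read 7.93, 8.09 and 7.76 in the knockout, against 6.96, 7.35 and 8.05 in wild type (adjusted p = 0.45). Wild type array 3 was the highest wild type array for both genes.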
